A study of Homo sapiens with 15 samples.

Results

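S1PR1 and 8 further genes of sphingosine 1-phosphate (S1P) signalling were followed in RNA sequencing of the established human breast cancer cell line MDA-MB-231 after depletion of the Hippo pathway co-regulators YAP and TAZ. The members were chosen by symbol. They are 4 S1P receptors (S1PR1, S1PR2, S1PR3 and S1PR5), 2 sphingosine kinases (SPHK1 and SPHK2), the S1P lyase SGPL1, the S1P phosphatase SGPP1 and the S1P exporter SPNS2. All 9 were found among the 18858 genes of the count table, and none was lost to a filter on low counts. S1PR1 was picked for its lower level in the siYAP and siYAP+TAZ cells than in siControl cells, so these 2 differences are given as a description without a test. S1PR4, the remaining S1P receptor gene, is not in the table analysed here.

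S1P is made from the membrane lipid product sphingosine by the sphingosine kinases. It leaves cells through exporters such as SPNS2, binds G protein-coupled receptors on the same or other cells, and is cleared inside cells by dephosphorylation back to sphingosine or by irreversible cleavage by the lyase. S1PR1 couples to Gi proteins and is best known for the barrier function of blood vessels and for the exit of lymphocytes from lymphoid organs, while S1PR2 and S1PR3 also couple to G12/13 and Gq proteins. In breast cancer cells S1P signalling has been studied mainly for migration, invasion and survival. YAP and TAZ carry no DNA-binding domain of their own and act on genes mainly through TEAD factors, often together with AP-1 factors.

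The wild-type cells were left untransfected (Control) or received a SMARTpool of siRNAs. The pools were a non-targeting one (siControl), one against YAP1 (siYAP), one against the TAZ gene WWTR1 (siTAZ), or both targeting pools together (siYAP+TAZ). RNA was taken after 48 h of knockdown and a further 5 to 6 h on gelatin-coated plates. Each group had 3 libraries, here called by the numbers in their labels: Control has 16, 21 and 26, siControl has 17, 22 and 27, siYAP has 18, 23 and 28, siTAZ has 19, 24 and 29, and siYAP+TAZ has 20, 25 and 30. The siYAP+TAZ cells received both pools and so a larger total amount of siRNA, which these groups do not separate from the loss of both targets. The knockdowns are transient and were made in a single cell line. The paper describes 3 independent sets of experiments, without naming in its text the libraries of each set. The labels do not say which libraries come from the same culture, so the p-values below measure the spread between these libraries. The main tests are not paired by set, and a block by the run of library numbers is given among the alternatives at the end.

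Polyadenylated RNA gave 18696737 to 30107312 counted reads per library (median 22902846). YAP1 stood at between 17.6% and 64.0% of the siControl mean in the siYAP libraries and at between 41.5% and 51.8% in siYAP+TAZ. WWTR1 stood at between 14.1% and 45.8% in siTAZ and at between 62.1% and 71.0% in siYAP+TAZ. The library labelled siYAP 23 kept the most YAP1 (64.0%), whereas siYAP 18 and 28 kept 23.4% and 17.6%. All 4 genes listed as high in this line (VIM, CD44, KRT8 and KRT18) were abundant in every library, and the epithelial cadherin CDH1 and the oestrogen receptor ESR1 are not in the table analysed here. The other genes listed as low, PGR and ERBB2, together held 2083 to 2927 normalized counts, nearly all from ERBB2.

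The sequences of the siRNAs are shown first because they define the groups. Each is the 19-base strand that reads as the target does, 5′ to 3′, with capitals for positions 12 to 18, the letters that face bases 2 to 8 (the seed) of the opposite, guide strand. The 4 siRNAs of the siYAP pool all lie in the coding sequence of YAP1 on the plus strand of chromosome 11 (GRCh38), at chr11:102227471-102227489 (exon 8 of 9), chr11:102229814-102229832 and chr11:102229900-102229918 (both exon 9) and chr11:102114375-102114393 (exon 2).
siYAP 1: gcaccuaucacUCUCGAGa
siYAP 2: gaacauagaagGAGAGGAg
siYAP 3: ccaccaagcuaGAUAAAGa
siYAP 4: ggucagagauaCUUCUUAa

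The 4 siRNAs of the siTAZ pool lie in the coding sequence of WWTR1 on the minus strand of chromosome 3, at chr3:149657174-149657192 (exon 2 of 7), chr3:149520895-149520913 and chr3:149520960-149520978 (both exon 7) and chr3:149527864-149527882 (exon 5). For the siControl pool 1 siRNA is listed, and it matched no annotated transcript over its whole length.
siTAZ 1: aagccuagcucGUGGCGGa
siTAZ 2: aggaacaaacgUUGACUUa
siTAZ 3: ggacaaacaccCAUGAACa
siTAZ 4: gacaugagaucCAUCACUa
siControl 1: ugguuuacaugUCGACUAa

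None of the 9 siRNAs matched a member over its whole length, and the longest agreement at any aligned position was 14 of 19 bases. The canonical transcript of S1PR1 held none of the 9 seed matches, and of its 6 annotated transcripts 1 held the match of siYAP 2 (GAGAGGA in the transcript). A seed match of the siYAP pool was found in the canonical transcripts of S1PR2 and SGPL1, and of the siTAZ pool in those of S1PR3, SPHK1, SGPL1 and SPNS2. Such matches are common. At least 1 was present in 54.8% of 20020 canonical transcripts for the siYAP pool and in 57.7% for the siTAZ pool.

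S1PR1, the receptor at the centre of the set, lies at chr1:101236865-101243713 on the plus strand (GRCh38, GENCODE 44), has 2 exons in its canonical transcript and shares no exonic base with another annotated gene. Its level is given as a normalized count, which is the read count scaled by the trimmed mean of M values (TMM) to a library of mean size. In Control it measured 165.9, 150.4 and 111.8, and in siControl 138.6, 130.4 and 152.3. In siYAP it measured 55.2, 49.3 and 43.1, and in siYAP+TAZ 49.9, 49.4 and 47.7. In siTAZ it measured 86.1, 70.3 and 48.8. In each group except siControl these values fell as the library number rose. All 9 knockdown libraries lay below all 6 control libraries. Of all genes, groups that did not overlap with the knockdown lower were seen for 18.2% (siYAP+TAZ), 9.86% (siYAP) and 10.2% (siTAZ) against siControl, and for 16.7%, 8.5% and 9.87% against Control. The 2 control groups overlapped each other, and so did the 3 knockdown groups. These levels rest on 38 to 166 reads per library.

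**Figure D1:**
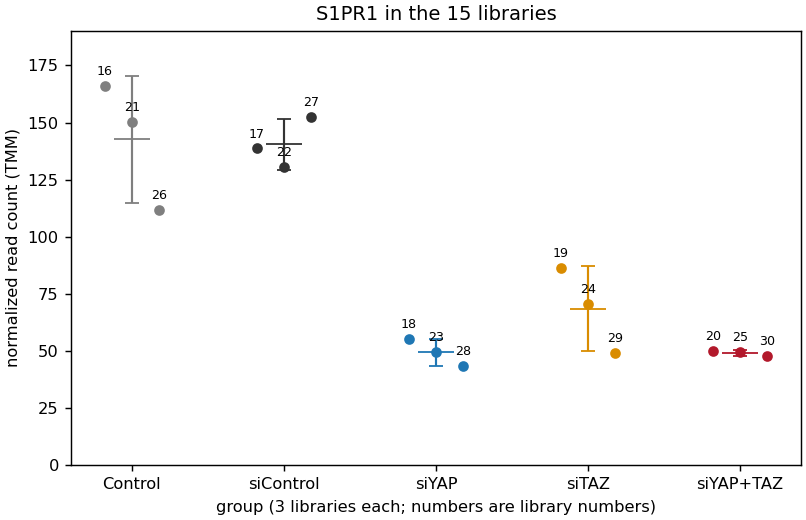
Normalized read count of S1PR1 (y axis, TMM) in each of the 15 libraries, by group (x axis). Points are libraries with their numbers, horizontal lines are group means and bars are SD (n = 3). The 6 control libraries sit between 111.8 and 165.9 and the 9 knockdown libraries between 43.1 and 86.1.

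In order of their means the groups stood at 142.7 ± 27.9 (Control), 140.5 ± 11.1 (siControl), 68.4 ± 18.7 (siTAZ), 49.2 ± 6.02 (siYAP) and 49.0 ± 1.16 (siYAP+TAZ; SD, n = 3 each). Of the neighbours in this order, only siControl and siTAZ were separated by every library. S1PR1 was 2.83-fold lower in siYAP than in siControl (log2 fold change -1.50 ± 0.19, SE) and 2.86-fold lower in siYAP+TAZ (-1.52 ± 0.20), which are the differences it was picked for. Against Control the same libraries gave -1.53 ± 0.20 and -1.55 ± 0.20. Without library siYAP 23, which kept the most YAP1, the siYAP value against siControl was -1.49 ± 0.23. In bulk RNA, fewer cells with the transcript and less transcript per cell cannot be told apart.

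The stated choice of S1PR1 did not use the siTAZ and Control libraries, so their comparison is the one tested. It is not blind, since the choice was made with earlier results of these data known. S1PR1 fell in siTAZ against Control, by 1.05 on the log2 scale (SE 0.19, 95% interval -1.48 to -0.61, edgeR adjusted p = 0.0067), that is 2.06-fold, with all 3 siTAZ libraries below all 3 Control libraries. An exact two-sided permutation test of the 3 against 3 libraries gave p = 0.1, the smallest it can give. Of all genes, 0.408% passed both thresholds in this comparison (an adjusted p no higher than 0.05 together with a log2 fold change of 1 or more in size). Those that were lower made up 0.164% of all genes, and 3.4% passed the p threshold alone. Against siControl, whose libraries were part of the choice, the siTAZ value was -1.02 ± 0.19 and is given without a test. Control cells were not transfected, so siTAZ against Control also includes the transfection. As a description, S1PR1 in siControl differed from Control by -0.03 ± 0.18 on the log2 scale (SE). The edgeR fit took its spread from all libraries, including those used in the choice.

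The siTAZ estimate lay near the fold threshold, so its call changed with single libraries. Over 15 alternative settings the log2 fold change of S1PR1 against Control ran from -1.26 to -0.86 and the adjusted p was at most 0.05 in 14. Both thresholds were passed in 12. They were missed without siTAZ 29 (-0.86), without Control 16 (-0.92) and with only these 2 groups in the fit (edgeR adjusted p = 0.064). Library siTAZ 29 has the highest number of its group and Control 16 the lowest, and S1PR1 fell with rising number in both groups. Against siControl, as a description, the siTAZ value ran from -1.23 to -0.83.

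S1PR1 was close to equal in siYAP and siYAP+TAZ and on average higher in siTAZ than in both. The log2 difference of siYAP+TAZ from siYAP was -0.013 ± 0.21 (SE, 95% interval -0.49 to 0.46). From siTAZ it was -0.50 ± 0.21, and that of siYAP from siTAZ -0.49 ± 0.21. Without siTAZ 19, the library with the most WWTR1 left in that group, these last values were -0.29 and -0.27. On the log2 scale the co-knockdown value stood 1.002 ± 0.29 above the sum of the 2 single knockdown values. This departure from the sum is an estimate only, because S1PR1 was chosen on these libraries.

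Within groups the S1PR1 level is given beside the target RNA that was left. The siYAP libraries 18, 23 and 28 held 39.3%, 35.1% and 30.7% of the siControl mean of S1PR1, with 23.4%, 64.0% and 17.6% of YAP1. Library 23, with the most YAP1, lay between the other two in S1PR1. The siTAZ libraries 19, 24 and 29 held 61.3%, 50.1% and 34.8% of S1PR1, with 45.8%, 14.1% and 28.8% of WWTR1. The siYAP+TAZ libraries 20, 25 and 30 held 35.6%, 35.2% and 33.97% of S1PR1, with 51.8%, 51.0% and 41.5% of YAP1 and 62.7%, 62.1% and 71.0% of WWTR1. In all 3 knockdown groups S1PR1 also fell as the library number rose. With 3 libraries a group, no relation between these values was tested.

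Other cell types known for S1PR1 were checked by their markers. Of 8 endothelial markers 3 are in the table, and the defining CDH5, TEK, VWF, EMCN and ERG are not. The sum of the 3 (TIE1, CLDN5 and ROBO4) ran from 863 to 1146 normalized counts in Control, 828 to 1163 in siControl, 1164 to 1324 in siYAP, 1113 to 1174 in siTAZ and 1155 to 1313 in siYAP+TAZ. Most of it was ROBO4, and the 3 markers did not move alike. In siYAP+TAZ against siControl, ROBO4 rose by 0.49 on the log2 scale (SE 0.12, edgeR adjusted p = 0.0086), whereas TIE1 and CLDN5 gave -0.35 ± 0.24 and -0.11 ± 0.63 (adjusted p = 0.37 and 0.93). All 3 siYAP+TAZ libraries lay below siControl in TIE1, as was seen for 18.2% of all genes. In siTAZ against Control, ROBO4 gave 0.30 ± 0.12, TIE1 -0.56 ± 0.25 and CLDN5 -0.52 ± 0.65, and none passed. The part of these cell types in the S1PR1 difference was not tested. Of 6 lymphocyte markers 2 are in the table, PTPRC and CD79A, with a sum of at most 9.25 normalized counts in any library.

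The promoter of S1PR1 is shown because YAP and TAZ act through TEAD factors. The window runs from 250 bases before to 50 bases after a start given by RefSeq (GRCh38.p14, chr1:101236769-101237068, plus strand, GC content 64.7%). That start, at base 101237019, lies 154 bases inside the GENCODE gene, so only 96 bases of the window precede the start given above. The window held neither the TEAD motif CATTCC nor the AP-1 motif TGANTCA on either strand, so no letter is in capitals.
S1PR1 promoter: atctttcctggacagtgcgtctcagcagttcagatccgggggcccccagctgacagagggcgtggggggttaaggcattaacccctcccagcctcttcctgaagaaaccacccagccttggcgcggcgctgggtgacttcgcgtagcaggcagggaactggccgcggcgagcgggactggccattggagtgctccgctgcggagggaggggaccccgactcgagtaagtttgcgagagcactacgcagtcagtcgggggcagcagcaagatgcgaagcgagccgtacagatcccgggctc

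Of 35116 such windows, 14.0% held the TEAD motif and 7.71% the AP-1 motif. For the members, 12 windows of 7 genes were matched by symbol, and SGPP1 and SPNS2 had none. Matches were found in windows of SPHK1 and SPHK2 only. The SPHK1 window with both motifs is printed for contrast (chr17:76382954-76383253, plus strand, at a RefSeq start inside the GENCODE gene), with the TEAD match starting at base 145 and the AP-1 match at base 245 of the window in capitals. A second SPHK1 window held an AP-1 match and an SPHK2 window a TEAD match on the opposite strand. A match is a description of the letters and not a bound site, and the absence of one covers this window alone.
SPHK1 promoter: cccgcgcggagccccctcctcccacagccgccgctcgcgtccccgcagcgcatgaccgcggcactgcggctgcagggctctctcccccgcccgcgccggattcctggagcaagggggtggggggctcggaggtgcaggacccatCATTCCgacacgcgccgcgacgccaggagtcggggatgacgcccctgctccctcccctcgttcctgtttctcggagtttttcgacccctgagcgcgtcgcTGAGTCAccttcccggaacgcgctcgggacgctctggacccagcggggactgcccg

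S1PR2, the receptor known for coupling to G12/13, lies at chr19:10221433-10231331 (minus strand) and shares 2.28% of its exonic bases with DNMT1 on the same strand. It measured 91.0, 92.5 and 84.8 normalized counts in siControl and 94.9, 83.9 and 92.0 in Control. In siYAP it measured 110.3, 118.4 and 105.8, in siTAZ 96.4, 106.6 and 119.5, and in siYAP+TAZ 89.2, 118.2 and 107.4. The siYAP and siTAZ libraries all lay above all 6 control libraries, while siYAP+TAZ overlapped them. Groups that did not overlap in the higher direction were seen for 9.65% of all genes in siYAP against siControl and 10.7% in siTAZ, and for 9% and 10.5% against Control. The log2 fold changes against siControl were 0.32 ± 0.14 (siYAP), 0.26 ± 0.15 (siTAZ) and 0.23 ± 0.15 (siYAP+TAZ). None passed the edgeR test (adjusted p = 0.39, 0.42 and 0.32), and the 95% intervals reached from -0.10 to 0.64.

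S1PR3, a receptor that couples to Gq as well as Gi and G12/13, lies at chr9:88990863-89005155 (plus strand). It ran from 71.9 to 106.3 normalized counts in siControl, 68.4 to 134.9 in Control, 65.7 to 110.3 in siYAP, 70.7 to 121.4 in siTAZ and 48.6 to 139.1 in siYAP+TAZ. Every group overlapped every other. The lowest library of each group was the 1 with the highest number, and libraries 26 to 30 held 48.6 to 71.9 against 85.1 to 139.1 in libraries 16 to 25. The log2 fold changes against siControl were 0.05 ± 0.35, 0.02 ± 0.35 and 0.11 ± 0.35 for siYAP, siTAZ and siYAP+TAZ, with 95% intervals between -0.77 and 0.90. In siYAP+TAZ the S1PR3 value ran from -0.18 without library siYAP+TAZ 20 to 0.47 without siYAP+TAZ 30.

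S1PR5, a receptor best known in natural killer cells and oligodendrocytes, lies at chr19:10512742-10517931 (minus strand) and had the fewest reads of the set (22 to 111 per library). In siControl it measured 52.7, 44.4 and 50.4 normalized counts and in Control 45.0, 54.8 and 28.9. In siYAP it measured 85.0, 55.6 and 47.2, in siTAZ 55.1, 38.7 and 33.4, and in siYAP+TAZ 48.8, 46.2 and 45.9. A single library, siYAP 18, stood above the rest, and all groups overlapped. The log2 fold changes against siControl were 0.36 ± 0.25, -0.19 ± 0.26 and -0.07 ± 0.26 for siYAP, siTAZ and siYAP+TAZ, and the 95% intervals together ran from -0.77 to 0.91. Without siYAP 18 the S1PR5 value in siYAP was 0.07 ± 0.26.

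The order of the 4 receptor RNAs was not the same in all groups. Levels were set side by side per length, as RPKM, the read count divided by the exonic length in kilobases and by the TMM-scaled library size. Over the union of exons, S1PR1 led in siControl at 1.14 ± 0.0898, overlapping S1PR2 (1.04 ± 0.0476) and above S1PR5 (0.742 ± 0.0650) and S1PR3 (0.286 ± 0.0563). In siYAP+TAZ, S1PR1 stood at 0.397 ± 0.00941, below S1PR2 (1.22 ± 0.170) and S1PR5 (0.708 ± 0.0238) in every library and overlapping S1PR3 (0.314 ± 0.146). Its mean share of the summed receptor level was 35.5% in siControl, 36.5% in Control, 20.1% in siTAZ, 13.6% in siYAP and 15.1% in siYAP+TAZ.

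The length used mattered for the order. Over the longest annotated transcript (2778 bases for S1PR1 against 5223 in the union of exons), the share of S1PR1 was 47.2% in siControl, 48.4% in Control, 29.2% in siTAZ, 20.6% in siYAP and 22.6% in siYAP+TAZ. S1PR1 was then above S1PR2 in every control library. In siYAP and siYAP+TAZ it was below S1PR2 and S1PR5 with both lengths, and in siTAZ it came after S1PR5 with the union of exons but before it with the longest transcript, by means only, since their siTAZ libraries overlapped with both lengths. Lower shares of S1PR1 in siYAP and siYAP+TAZ follow from the values it was picked for and were not tested.

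**Figure D2:**
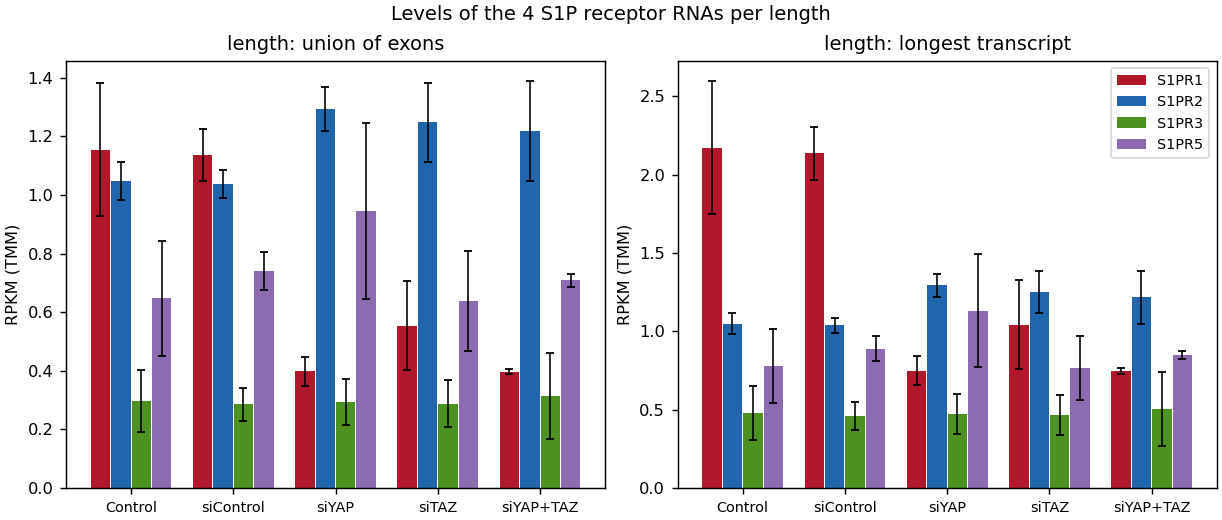
RPKM (y axis, TMM-scaled) of the 4 S1P receptor RNAs in the 5 groups (x axis), with the union of exons (left) or the longest transcript (right) as the length. Bars are means of 3 libraries and whiskers SD. The S1PR1 bar is the tallest in Control and siControl and lies below S1PR2 in the 3 knockdown groups, while S1PR3 is the lowest in every group.

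SPHK1, the sphingosine kinase often raised in tumours, lies at chr17:76376584-76387860 (plus strand), with 1.34% of its exonic bases overlapped by PRPSAP1 on the opposite strand. Per length it was the most abundant member, with a mean of 20.3 RPKM over the 15 libraries (union of exons) against 0.728 for S1PR1. In siControl it measured 2125, 2206 and 2299 normalized counts and in Control 2428, 2084 and 2275. In siYAP+TAZ it measured 1900, 1985 and 1811. All 3 siYAP+TAZ libraries lay below all 6 control libraries, a separation shared by 18.2% of all genes against siControl and 16.7% against Control. The level fell by 0.22 on the log2 scale against siControl (SE 0.072, edgeR adjusted p = 0.039) and by 0.25 against Control (SE 0.072, adjusted p = 0.018).

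These differences in SPHK1 passed the adjusted p threshold but not the fold threshold. Of all genes, 18.4% passed the former in siYAP+TAZ against siControl (8.39% lower) and 19.4% against Control (9.07% lower). Over 15 alternatives the adjusted p against siControl was at most 0.05 in 7 and ran up to 0.16, and against Control it was at most 0.05 in 11. Against siControl it was above 0.05 without any single library of either group, with DESeq2 size factors (0.0501) and with scaling by library size only (0.11). The siYAP libraries (2114, 2023 and 2075) and the siTAZ libraries (2221, 2218 and 2005) gave log2 fold changes of -0.09 ± 0.071 and -0.04 ± 0.071 against siControl (adjusted p = 0.68 and 0.84).

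SPHK2, the kinase also found in the nucleus and mitochondria, lies at chr19:48619291-48630717 (plus strand). It ran from 925 to 1014 normalized counts in siControl, 905 to 1043 in Control, 970.4 to 1050.4 in siYAP, 982 to 1211 in siTAZ and 1009 to 1100 in siYAP+TAZ. All groups overlapped the controls. The log2 fold changes against siControl were 0.09 ± 0.087, 0.15 ± 0.087 and 0.13 ± 0.087, and 95% intervals together ran from -0.10 to 0.34. Of its exonic bases 22.3% are overlapped by genes on the opposite strand, among them DBP, and whether the counting used strand is not stated.

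SGPL1, the lyase that irreversibly cleaves S1P, lies at chr10:70815905-70895816 (plus strand) and shares 7.06% of its exonic bases with another annotated gene on the same strand, ENSG00000289738. It measured 1086, 1110 and 1090 normalized counts in siControl and 1248, 1261 and 1245 in Control. In siYAP it measured 1151, 1268 and 1111, in siTAZ 1321, 1350 and 1280, and in siYAP+TAZ 1316, 1332 and 1311. The siControl libraries were the lowest 3 of all 15, and siTAZ and siYAP+TAZ lay above both control groups in every library. Such a separation upwards was seen for 18.2% (siYAP+TAZ) and 10.7% (siTAZ) of all genes against siControl, and for 17.1% and 10.5% against Control. Against siControl SGPL1 rose by 0.27 in siYAP+TAZ (SE 0.066, edgeR adjusted p = 0.0072) and by 0.27 in siTAZ (SE 0.066, adjusted p = 0.042) on the log2 scale, below the fold threshold. Of all genes, 9.97% passed the adjusted p threshold in the higher direction in siYAP+TAZ and 1.34% in siTAZ.

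Against Control the same libraries differed by only 0.08 ± 0.066 (siYAP+TAZ, adjusted p = 0.46) and 0.07 ± 0.066 (siTAZ, adjusted p = 0.59). The siControl libraries themselves lay 0.19 ± 0.066 below Control, with no overlap (edgeR unadjusted p = 0.0089, adjusted p = 0.9998), where 2.11% of all genes had an unadjusted p under 0.05 and 3.3% had siControl below Control without overlap. The choice of control therefore decided whether SGPL1 passed. Over 15 alternatives the siYAP+TAZ value against siControl kept an adjusted p of at most 0.05 in 15, and the siTAZ value in 8.

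SGPP1, the phosphatase that returns S1P to sphingosine in the endoplasmic reticulum, lies at chr14:63684216-63728065 (minus strand). It measured 879, 885 and 883 normalized counts in siControl, 802 to 903 in Control, 925 to 1007 in siYAP, 851 to 995 in siTAZ and 868 to 931 in siYAP+TAZ. All 3 siYAP libraries lay above all 6 control libraries, a separation upwards seen for 9.65% of all genes against siControl and 9% against Control, while siTAZ and siYAP+TAZ overlapped the controls. The log2 fold changes against siControl were 0.12 ± 0.076 (siYAP, edgeR adjusted p = 0.61), 0.08 ± 0.077 (siTAZ) and 0.01 ± 0.077 (siYAP+TAZ), with 95% intervals between -0.16 and 0.29.

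SPNS2, the S1P exporter, lies at chr17:4498881-4539035 (plus strand), with 3.42% of its exonic bases overlapped by MYBBP1A on the opposite strand. It ran from 166 to 270 normalized counts in siControl, 203 to 224 in Control, 167 to 280 in siYAP, 155 to 276 in siTAZ and 108 to 337 in siYAP+TAZ. The siYAP+TAZ group held both the highest library (number 20) and the lowest (number 30) of all 15. The log2 fold changes against siControl were -0.02 ± 0.36, -0.10 ± 0.36 and 0.12 ± 0.36 for siYAP, siTAZ and siYAP+TAZ. With 95% intervals between -0.90 and 0.92, changes of up to about that size are not excluded here. SPNS2 fell as the library number rose in siControl, siYAP and siYAP+TAZ, but not in Control and siTAZ. In siYAP+TAZ the SPNS2 value ran from -0.18 without library siYAP+TAZ 20 to 0.50 without siYAP+TAZ 30, so its direction was set by single libraries.

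**Figure D3:**
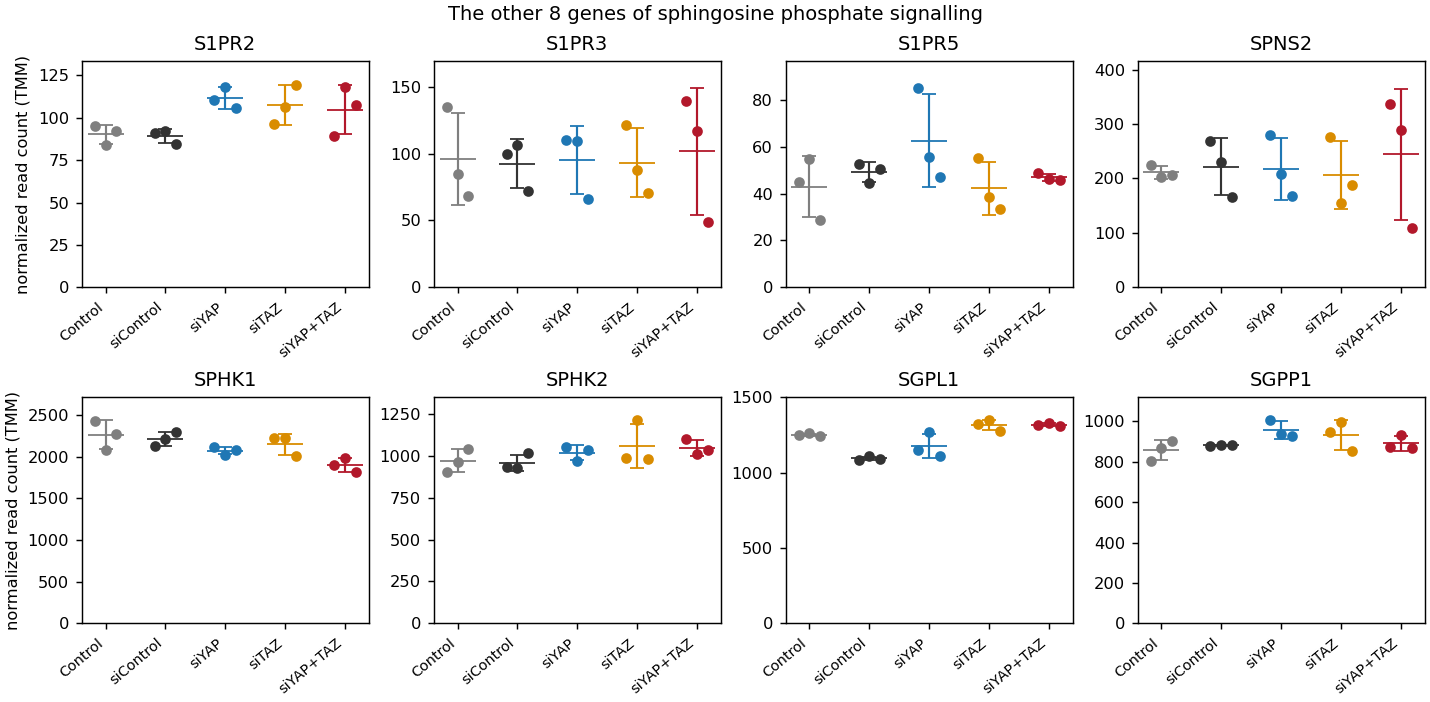
Normalized read counts (y axis, TMM, from 0) of the 8 members other than S1PR1 in the 5 groups (x axis). Points are libraries, lines means and bars SD (n = 3). SGPL1 is lowest in siControl (1086 to 1110) and SPHK1 lowest in siYAP+TAZ (1811 to 1985), while S1PR3 and SPNS2 spread widely within groups.

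Of the 8 members other than S1PR1, none passed both thresholds in any of the 6 comparisons of a knockdown with a control. S1PR1 is left out of this count because it was picked on 2 of these comparisons. Against siControl, 3.46% of all genes passed both in siYAP+TAZ, and 0.0955% and 0.212% in siYAP and siTAZ. Against Control these shares were 3.79%, 0.133% and 0.408%. The median log2 fold change of these 8 against siControl was 0.12 with both pools, 0.10 with the YAP1 pool and 0.05 with the WWTR1 pool, beside -0.0048, 0.0025 and 0 over all genes. None of them passed the thresholds between siControl and Control (0% of all genes with edgeR, DESeq2 and limma-voom), between siYAP+TAZ and siYAP (0.742%) or siTAZ (0.78%), between siYAP and siTAZ (0.0636%) or in the departure from the sum (0.0053%).

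**Figure D4:**
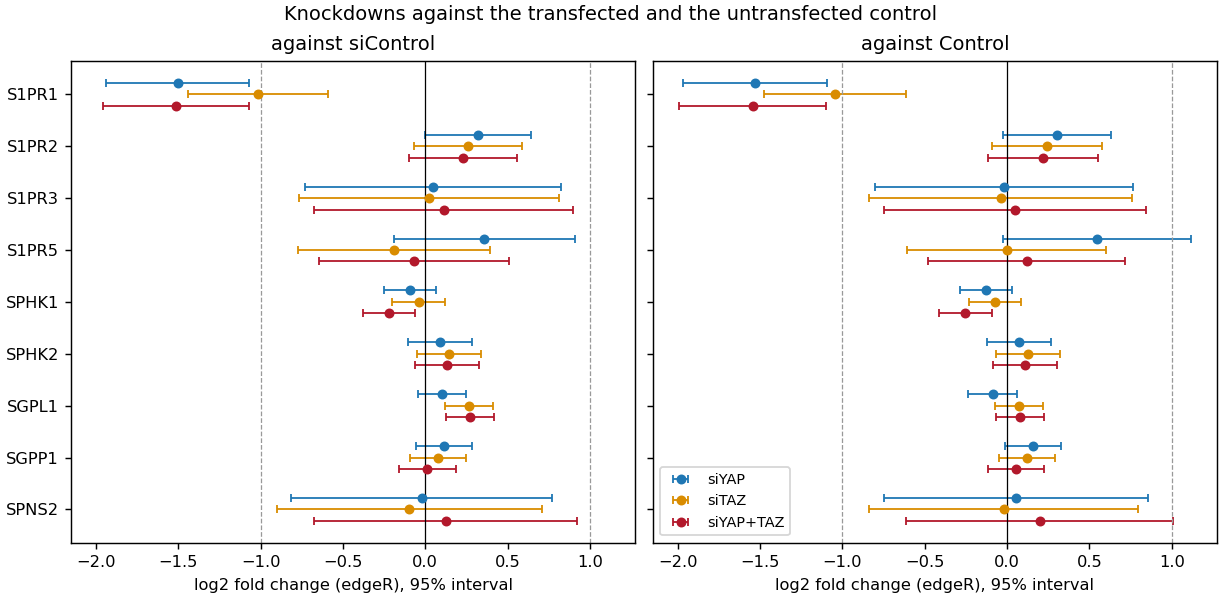
Log2 fold changes (x axis, edgeR) of the 9 members (y axis) in the siYAP, siTAZ and siYAP+TAZ groups against siControl (left) and Control (right). Points are estimates, bars 95% intervals and dashed lines the fold threshold of 1. S1PR1 lies between -1.55 and -1.02, and the other members between -0.25 and 0.55.

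The further genes of the pathway came from 4 lists, none of which had a member past both thresholds against siControl in any knockdown. Of 29 measured genes of sphingoid base and ceramide metabolism, 3 were higher and 1 lower at an adjusted p of at most 0.05 in siYAP+TAZ, where 9.97% of all genes were higher and 8.39% lower, with a median log2 fold change of 0.00. UGCG, which makes glucosylceramide from ceramide, fell by 0.68 in siYAP+TAZ (SE 0.074, edgeR adjusted p = 6.5e-06) and by 0.36 in siTAZ (SE 0.073, adjusted p = 0.013). SMPD1, the lysosomal acid sphingomyelinase, rose by 0.68 (SE 0.085, adjusted p = 2.3e-05) and by 0.45 (SE 0.085, adjusted p = 0.0094). In the siTAZ comparison 1.34% of all genes passed the p threshold upwards and 0.695% downwards. ASAH1, the acid ceramidase that releases sphingosine, rose by 0.29 in siYAP+TAZ (SE 0.077, adjusted p = 0.012). UGCG measured 4289 to 4570 normalized counts in siControl and 2670 to 2928 in siYAP+TAZ, with no overlap. SMPD1 measured 1281 to 1374 and 2087 to 2148, also with no overlap. Of all genes, 18.2% were separated downwards and 18.2% upwards in this comparison. Against Control the counts in siYAP+TAZ were 4 higher and 1 lower, beside 10.4% and 9.07% of all genes. In siYAP no gene of this list passed against siControl (UGCG -0.15 ± 0.073, SMPD1 0.27 ± 0.084).

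Of 12 other genes that handle S1P, 2 were higher in siYAP+TAZ at an adjusted p of at most 0.05, beside 9.97% of all genes. ALDH3A2, which oxidises the aldehyde that the lyase releases, rose by 0.90 (SE 0.15, edgeR adjusted p = 0.00052). It measured 689 to 941 normalized counts in siControl and 1368 to 1711 in siYAP+TAZ. PLPP1, a lipid phosphate phosphatase of the cell surface, rose by 0.62 (SE 0.18, adjusted p = 0.026). CIB2 came next by p-value and did not pass (edgeR adjusted p = 0.10), and it rests on only 0 to 9 reads per library. The list's median log2 fold change was 0.05. Against Control 1 of the 12 was higher, beside 10.4% of all genes, with a median of 0.24. ALDH3A2 rose by 0.91 there (SE 0.15, edgeR adjusted p = 0.00047), whereas PLPP1 did not pass (0.53 ± 0.18, adjusted p = 0.055).

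Of 21 genes of receptor coupling and downstream signalling, 4 were higher and none lower in siYAP+TAZ, beside 9.97% and 8.39% of all genes, around a median of -0.01. ARRB1, which encodes beta-arrestin 1, an adaptor that stops and redirects signalling of activated receptors, rose by 0.66 (SE 0.095, edgeR adjusted p = 9.6e-05). RHOB, which encodes a small GTPase of endosomes and the plasma membrane, rose by 0.61 (SE 0.11, adjusted p = 0.00096). GNAI2, which encodes a Gi alpha subunit, rose by 0.34 (SE 0.078, adjusted p = 0.0052). Against Control the count was 4 higher and 1 lower, beside 10.4% and 9.07% of all genes. The lower one was GNAI1 (-0.41 ± 0.11, edgeR adjusted p = 0.013), another Gi alpha subunit gene, named after its value was seen. Of 6 measured related lysophospholipid receptor genes none passed against siControl. The lysophosphatidic acid receptors LPAR2 (0.37 ± 0.14), LPAR1 (-0.76 ± 0.28) and LPAR5 (1.14 ± 0.49) were nearest, with adjusted p of 0.067, 0.091 and 0.12. Against Control 1 of the 6, LPAR2, passed the p threshold but not the fold threshold (0.51 ± 0.14, edgeR adjusted p = 0.014), beside 10.4% of all genes higher, and the list's median was 0.25, beside -0.02 over all genes. LPAR5 rests on few reads (3 to 12 per library in the siYAP+TAZ and siControl groups). LPAR4 (2 to 9 reads per library over all groups), LPAR6 (0 to 6) and ENPP2 (0 to 9) were also sparse. The medians of this list therefore rest largely on genes with few reads.

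The genes whose level across the 15 libraries was most like that of S1PR1 were sought among the 13209 genes whose mean normalized count was 20 or more, by Pearson's r of log2 CPM (read counts relative to the TMM-scaled library size). They were ABL2 (r = 0.94), EDN1 (0.94), THBS1 (0.94), SLC25A38 (0.94) and FZD2 (0.93). ABL2 encodes a tyrosine kinase that binds actin, EDN1 the peptide endothelin 1, THBS1 the matrix protein thrombospondin 1, SLC25A38 a mitochondrial glycine carrier and FZD2 a WNT receptor. The 15 points share 5 groups, so r reflects the group differences foremost, and it is given as a description. With scaling by library size only, 4 of these 5 were again among the first 5, with GADD45A in place of SLC25A38.

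The size of the differences was not alike among them. Mean normalized counts in siControl and siYAP+TAZ were 917 and 381 for EDN1, 6372 and 4365 for ABL2, 49883 and 33779 for THBS1, 2949 and 1986 for FZD2 and 1479 and 1239 for SLC25A38. EDN1 had the log2 fold change nearest to that of S1PR1, at -1.27 ± 0.25, and SLC25A38 the smallest, at -0.25 ± 0.065. Their values in the knockdowns follow from the choice of genes like S1PR1 and were not tested as a set.

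**Figure D5:**
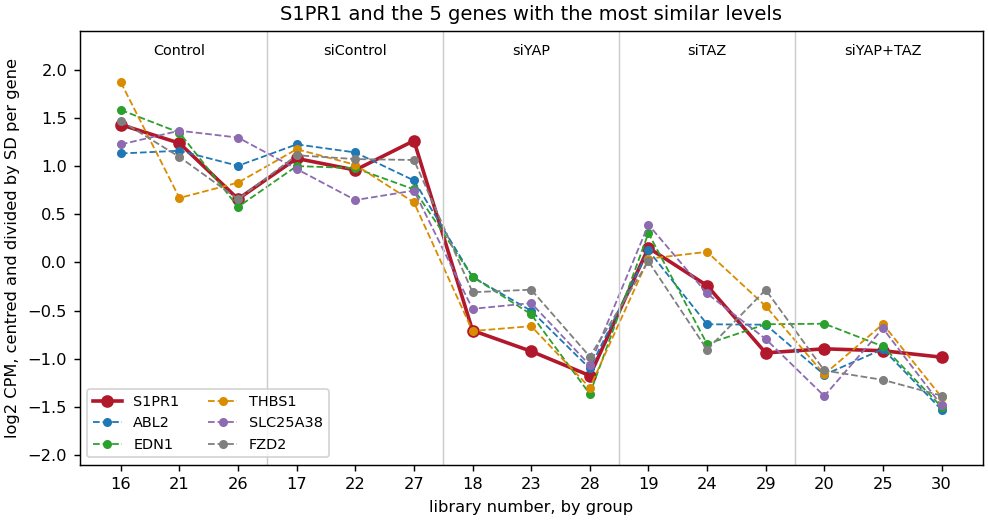
Log2 CPM, centred and divided by the SD of each gene (y axis), of S1PR1 (thick line) and the 5 genes with the highest Pearson correlation to it, in the 15 libraries by group (x axis). Points are libraries, and lines join them in order only to guide the eye. All 6 genes lie above 0 in the 6 control libraries and at or below 0 in the siYAP and siYAP+TAZ libraries. Among the knockdown libraries siTAZ 19 lies highest for S1PR1 and 4 of the other 5 genes, and siTAZ 24 for THBS1.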

How the data were processed

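Poly(A) RNA-seq libraries of MDA-MB-231 cells (5 groups of 3) were assigned to groups by sample titles. The authors trimmed single reads, aligned them with STAR 2.4.2a to GRCh38 with GENCODE 34 and deposited raw read counts per gene, keeping genes with at least 5 reads in 1 library. The strand setting of the counting is not stated. The 30 columns of normalized and rlog values and the authors' comparison columns (fold changes and p-values) were not used.

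The raw counts of all 18858 genes and 15 libraries (18696737 to 30107312 reads) were normalized by TMM (factors 0.943 to 1.03) and analysed by the robust quasi-likelihood test of edgeR 4.0.16 (R 4.3.3), with 1 coefficient per group. P-values were adjusted by Benjamini-Hochberg over all genes, with the thresholds of the study's methods (adjusted p of at most 0.05, absolute log2 fold change of at least 1). Intervals are 95% with 10 degrees of freedom. In simulated counts of 18858 genes for siYAP against siControl, edgeR recovered 192 of 200 changed genes with 0 false calls. All planted changes were larger than the fold threshold, in genes above a floor of mean reads and with no run effect. The simulation therefore does not give the recovery of smaller changes or of changes near the threshold.

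The members and lists were chosen with earlier results of these data known. Named were the members, the siRNA targets, of each list the genes past the thresholds or else the 3 with the smallest adjusted p in siYAP+TAZ against siControl, and the 5 genes most like S1PR1. Coordinates and overlaps are from GENCODE 44 (83.2% of genes found by name), promoters from RefSeq (GRCh38.p14) and siRNA sequences from the study's supplement. Motifs were searched on both strands. Alternatives were DESeq2 1.42.0, limma-voom (limma 3.58.1), 2 filters on low counts, 2 scalings, no robust estimation, only the groups compared, a block for the run of library numbers and leaving out each library.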

Additional observations from a re-analysis of the deposited data

How the results depend on the processing

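In siTAZ against Control the number of members past the thresholds changed from 1 (S1PR1) to 0 with only the groups compared in the fit. Against siControl, where S1PR1 is a description and no test because those libraries were part of its choice, the number was 1, and 0 with scaling by library size only. Leaving out single libraries gave 0 to 1 in both comparisons. No value changed sign past a threshold. The labels give no replicate numbers shared between groups. With a replicate block for libraries 16 to 20, 21 to 25 and 26 to 30, which the labels do not say is a shared culture or day, the siTAZ value of S1PR1 was -1.05 against Control and -1.03 against siControl and the block changed no call of a member past both thresholds. Over the whole table, the count of genes past both thresholds against siControl was 18 in siYAP (5 to 72 over the alternatives, 72 with the block), 40 in siTAZ (4 to 152, 152 with the block) and 652 in siYAP+TAZ (533 to 831). Against Control it was 25 (12 to 84), 77 (20 to 220) and 714 (557 to 888). Another scaling moved the median of all genes by at most 0.052 on the log2 scale. Depth limits S1PR1 and S1PR5 most, at 38 to 166 and 22 to 111 reads per library, and the wide spread of S1PR3 and SPNS2 limits what their comparisons can show.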

Other observations

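Set against each other, the kinase that makes S1P and the lyase that cleaves it gave a read ratio of SPHK1 to SGPL1 of 1.96 to 2.11 in siControl, 1.65 to 1.95 in Control, 1.60 to 1.87 in siYAP, 1.57 to 1.68 in siTAZ and 1.38 to 1.49 in siYAP+TAZ. All 3 siYAP+TAZ libraries lay below all 12 others. How often other pairs of genes separate in this way was not counted. Single genes separated downwards in 18.2% and upwards in 18.2% of cases between siYAP+TAZ and siControl. SPHK1 alone was already lower, and SGPL1 alone higher, in every siYAP+TAZ library than in siControl. The ratio was formed after the values of both genes had been seen, so it carries no test, and it compares RNA only.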
